A study of Mus musculus with 15 samples.

Results

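Agpat2, Agpat3, Gpam, Dgat1, Dgat2, Lpin1 and Lpin2 are 7 genes of triglyceride synthesis, and they are described here in mouse aorta after a short change of diet. They are 7 of the 22180 genes measured, each read by 1 array probe set. The rule took the brightest probe set of a gene by its mean over 15 arrays, so brightness selected the probe sets and is not a result. The gene list itself was drawn up with earlier results of these arrays known, so a count over the 7 genes describes them and is no independent support. The mean over the 15 arrays was 7.83 for Agpat2, 7.95 for Agpat3, 8.38 for Gpam, 9.29 for Dgat1, 10.0 for Dgat2, 8.67 for Lpin1 and 7.13 for Lpin2, on a log2 scale. Lpin2 was the only one of the 7 with a choice between 2 probe sets.

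All animals were DBA/2NCrl, an inbred mouse strain, and 8 weeks old when the diets began. The feed held 20.2 g phosphorus per kg in the high-phosphate groups and 7.0 g in the chow groups, and was given for 5 days. Total RNA from abdominal and thoracic aorta gave 4 abdominal high-phosphate, 4 abdominal chow, 3 thoracic high-phosphate and 4 thoracic chow arrays. The labels call the arrays of a group biological replicates, and leave unsaid whether an animal gave both segments or animals were pooled. No group carries an engineered allele, per the labels, and all mice share the DBA/2NCrl background.

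Cells make triglyceride by adding fatty acids one after another to glycerol-3-phosphate. A glycerol-3-phosphate acyltransferase such as the mitochondrial enzyme encoded by Gpam adds the first, and an acylglycerolphosphate acyltransferase (Agpat2, Agpat3) adds the next and so forms phosphatidate. Lipins (Lpin1, Lpin2) remove the phosphate to give diacylglycerol, from which phospholipids can also be made, and a diacylglycerol acyltransferase (Dgat1, Dgat2) adds the last fatty acid. Adipocytes, which surround the aorta as perivascular fat, depend on this route to store fat, and inherited loss of AGPAT2 in humans leaves the body almost without adipose tissue.

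Agpat2 had the largest fall of the 7 genes. Lpin1 was called higher only in the average over both segments, and that call was lost without some single arrays. The 250 bases before the RefSeq start of these 2 genes are shown (RefSeq, GRCm38.p6, minus strand, 5′ to 3′). The Agpat2 window is chr2:26604418-26604667, directly before the gene, which spans 26593057 to 26604417 on chromosome 2. The Lpin1 window is chr12:16610967-16611216 and lies inside the gene's RefSeq span of 16535669 to 16653903 on chromosome 12. Capitals mark every match, on either strand, to the 6 motifs searched, which were AGGTCA for nuclear receptors, AGAACA for the glucocorticoid receptor, the E-box CACGTG, the GC box GGGCGG, the box named by its letters CCAAT, and the TATA box with letters TATAAA.
Agpat2: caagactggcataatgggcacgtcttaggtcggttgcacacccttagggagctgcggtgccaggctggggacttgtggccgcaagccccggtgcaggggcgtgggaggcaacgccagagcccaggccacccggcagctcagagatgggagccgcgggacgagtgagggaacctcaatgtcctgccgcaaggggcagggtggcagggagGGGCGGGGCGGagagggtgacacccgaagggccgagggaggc
Lpin1: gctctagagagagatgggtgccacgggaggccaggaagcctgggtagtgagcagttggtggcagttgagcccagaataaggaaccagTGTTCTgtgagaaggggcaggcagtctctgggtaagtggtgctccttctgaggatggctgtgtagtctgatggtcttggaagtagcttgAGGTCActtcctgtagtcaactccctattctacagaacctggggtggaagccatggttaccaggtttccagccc
In the Agpat2 window 69.2% of bases were G or C, with 16 CG pairs, and its only matches were 2 overlapping GC boxes that begin 42 and 37 bases before the start. The Lpin1 window was 54.8% G or C with 1 CG pair, and held AGGTCA 74 bases and the reverse complement of AGAACA 163 bases before the start. Over the 32851 windows of this length in the RefSeq table the median was 52.4% G or C. Of those windows 32.7% held the GC box, 14.0% the nuclear receptor motif, 16.1% that of the glucocorticoid receptor, 33.8% the CCAAT box, 12.4% the TATA box and 6.0% the E-box, so these matches are common, and they describe letters and not bound sites. Of the 7 genes 5 had windows in that table, 8 windows in all.

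Values are deposited log2 intensities, so a difference of 1 is 2-fold, and levels of different probe sets are not comparable. The medians of the 15 arrays lay between 5.778 and 5.84, and r between arrays of a group was 0.9739 to 0.9885. The mean of 8 smooth muscle markers was 8.20 to 9.50 on every array, above those medians, and the 10 pan-adipocyte markers measured averaged 8.45 to 9.59. Other tissue was present unevenly. The mean of 7 T and NK cell markers was 7.61 to 8.47 on abdominal high-phosphate arrays 1, 2 and 4 and abdominal chow arrays 2 and 4, against at most 6.01 elsewhere. The mean of 10 hepatocyte markers was 8.42 and 10.52 on abdominal high-phosphate arrays 3 and 4, and 6 cardiac muscle markers averaged 8.61 to 9.74 on thoracic and 6.10 to 6.49 on abdominal arrays. In bulk tissue fewer cells of a type and less RNA per cell cannot be told apart.

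In the abdominal aorta all 5 acyltransferases were lower after the high-phosphate diet, by 1.33-fold for Agpat3 up to 4.95-fold for Agpat2, and neither lipin passed the test. So 5 of the 7 genes fell and 0 rose at a limma adjusted p under 0.05, where 7.01% of all 22180 genes changed and 5.06% fell. On the same 5 genes every high-phosphate array lay below every chow array, as was the case for 7.75% of all genes. In the thoracic aorta Agpat2, Agpat3 and Gpam fell, 3 of the 7, with 0 rising, where 2.47% of all genes changed and 1.08% fell. Those 3 were also the ones whose thoracic groups did not overlap, against 6.67% of all genes lower without overlap. The median change of the 7 was -0.81 in the abdominal and -0.55 in the thoracic segment, beside -0.008 and -0.011 over all genes. Averaged over both segments 5 of the 7 fell and 1, Lpin1, rose, where 10.7% of all genes changed, 6.18% fell and 4.53% rose.

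**Figure D1:**
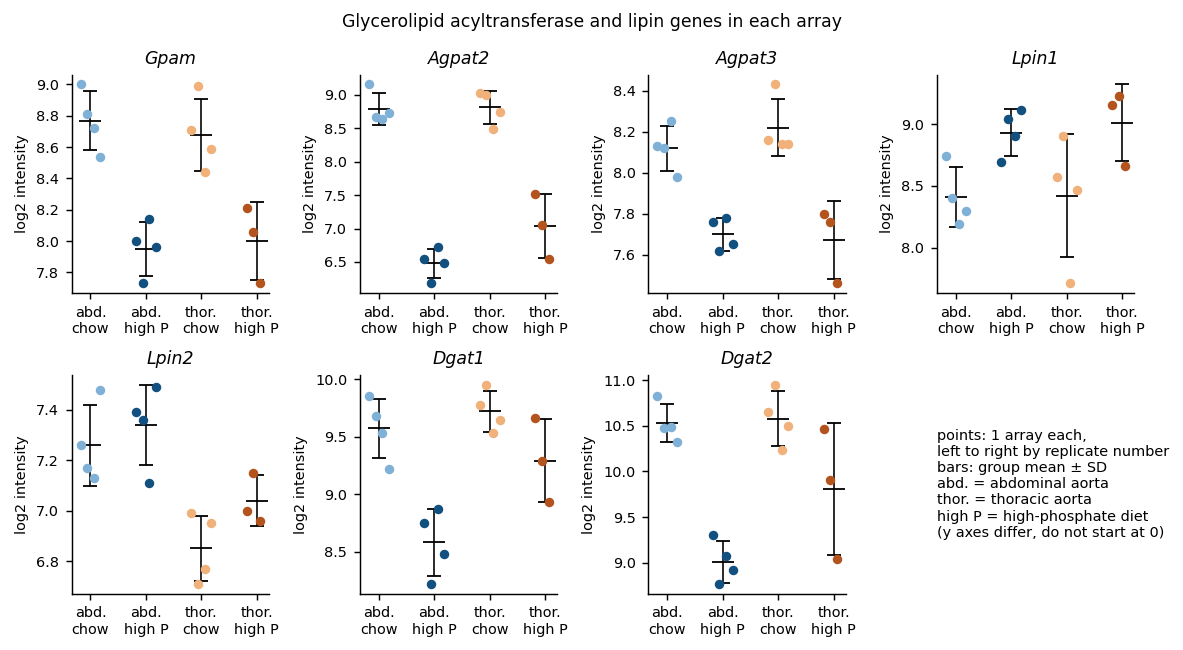
Log2 intensity of each of the 7 genes (vertical axis) on each of the 15 arrays, grouped by segment and diet, with bars at the group mean ± SD. Agpat2 on the 4 abdominal high-phosphate arrays sits between 6.18 and 6.72, below every chow array, while Lpin1 is higher on average on high phosphate in both segments.

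Gpam, the glycerol-3-phosphate acyltransferase of the outer mitochondrial membrane (probe set 17365728, chromosome 19, 55067635 to 55127319), read 8.00, 7.73, 8.14 and 7.96 on the 4 abdominal high-phosphate arrays and 9.0, 8.81, 8.72 and 8.54 on the 4 chow arrays. Every high-phosphate array was below every chow array. The means were 7.95 ± 0.17 (SD, n = 4) and 8.77 ± 0.19 (SD, n = 4), a change of -0.81 ± 0.135 (SE) or 1.76-fold lower (limma adjusted p = 0.0016). In the thoracic aorta it read 8.21, 8.06 and 7.73 on high phosphate and 8.71, 8.99, 8.44 and 8.59 on chow. Those groups did not overlap either, and the change was -0.68 ± 0.146, or 1.61-fold lower (limma adjusted p = 0.0234). The thoracic call was lost when thoracic high-phosphate array 2 or 3 or thoracic chow array 1 or 2 was left out (changes of -0.71, -0.55, -0.67 and -0.58, limma adjusted p = 0.0648, 0.113, 0.0701 and 0.063), and when only the thoracic arrays were fitted (limma adjusted p = 0.0533).

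Agpat2, which makes phosphatidate in fat and liver (probe set 17383104), moved most of the 7. In the abdominal aorta it read 6.55, 6.18, 6.72 and 6.49 on high phosphate and 9.15, 8.67, 8.63 and 8.72 on chow, so that nearly 2 units separated the highest array of the one diet from the lowest of the other. The means were 6.48 ± 0.22 and 8.79 ± 0.24 (SD, n = 4 each), and the change was -2.31 ± 0.188 with a 95% interval of -2.71 to -1.91 (limma adjusted p = 1.53e-05). It was the fall ranked 3 by size among all 22180 genes in that segment. In the thoracic aorta it read 7.51, 7.05 and 6.55 on high phosphate and 9.02, 8.99, 8.48 and 8.74 on chow, again without overlap. The change was -1.77 ± 0.203, or 3.41-fold lower (limma adjusted p = 0.000586), the fall ranked 4 there. Leaving out each array in turn kept the abdominal change between -2.39 and -2.19 and the thoracic one between -2.01 and -1.52, with the call kept each time.

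Agpat3, its broadly expressed relative (probe set 17242474, chromosome 10, 78269174 to 78352497), moved much less. It read 7.76, 7.62, 7.78 and 7.65 on abdominal high phosphate and 8.13, 8.12, 8.25 and 7.98 on abdominal chow. The groups did not overlap, though only 0.2 units lay between them, and the fall was -0.42 ± 0.0925, or 1.33-fold (limma adjusted p = 0.0121). In the thoracic aorta the arrays read 7.80, 7.76 and 7.46 on high phosphate and 8.16, 8.43, 8.14 and 8.14 on chow, a fall of -0.55 ± 0.0999, or 1.46-fold, without overlap (limma adjusted p = 0.0102). The thoracic call was lost without thoracic high-phosphate array 3, the lowest (-0.44, limma adjusted p = 0.0516).

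The 2 phosphatidate-forming enzymes therefore differed in the size of their fall. The difference Agpat2 minus Agpat3 within an array, a comparison chosen after the values were seen, averaged -1.22 ± 0.16 on abdominal high phosphate and 0.67 ± 0.28 on abdominal chow (SD, n = 4 each), without overlap. In the thoracic aorta it averaged -0.63 ± 0.32 (SD, n = 3) and 0.59 ± 0.22 (SD, n = 4), also without overlap. The 2-sided exact permutation p was 0.0286 in the abdominal and 0.0571 in the thoracic segment, each the smallest these group sizes allow. Adjusted over the 6 such tests made on the 3 enzyme pairs, both exact permutation p were 0.0856 and missed the threshold. Because arrays compress differences, unequal falls of 2 probe sets need not equal unequal falls of their RNA.

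Dgat1, one of the enzymes that finish triglyceride (probe set 17318502, chromosome 15, 76502012 to 76512021), read 8.75, 8.22, 8.87 and 8.48 on abdominal high phosphate and 9.85, 9.68, 9.53 and 9.22 on abdominal chow. The groups stood apart, and the fall was -0.99 ± 0.172, or 1.99-fold (limma adjusted p = 0.00223). On thoracic arrays it read 9.66, 9.29 and 8.93 on high phosphate and 9.77, 9.95, 9.53 and 9.64 on chow. There the groups overlapped, since high-phosphate array 1 lay above 2 chow arrays, and the change was -0.43 ± 0.185 with a 95% interval of -0.83 to -0.04 (limma adjusted p = 0.309).

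Dgat2, the unrelated second enzyme of that step (probe set 17493632, chromosome 7, 99153663 to 99182713), read 9.30, 8.77, 9.07 and 8.92 on abdominal high phosphate and 10.83, 10.48, 10.49 and 10.32 on abdominal chow. It fell by 1.52 ± 0.235, or 2.87-fold, without overlap (limma adjusted p = 0.00092). The thoracic high-phosphate arrays scattered widely, at 10.47, 9.91 and 9.04, beside 10.65, 10.95, 10.23 and 10.50 on chow. Array 1 lay within the chow range and array 3 more than 1 unit below it. The thoracic change was -0.77 ± 0.253 with a 95% interval of -1.32 to -0.23 (limma adjusted p = 0.139). It was -1.11 without thoracic high-phosphate array 1 (limma adjusted p = 0.0249) and -0.39 without array 3, so single arrays set its size. Dgat2 minus Dgat1 within an array averaged 0.43 ± 0.17 on abdominal high phosphate and 0.96 ± 0.12 on abdominal chow (SD, n = 4 each, exact permutation p = 0.0286, adjusted 0.0856). In the thoracic aorta the groups overlapped (0.52 ± 0.36 and 0.86 ± 0.12, exact permutation p = 0.114, adjusted 0.137).

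Lpin1, a phosphatidate phosphatase that also acts in the nucleus with transcription factors (probe set 17280062), was the only one of the 7 to rise. On abdominal arrays it read 8.69, 9.04, 8.90 and 9.11 on high phosphate and 8.74, 8.40, 8.19 and 8.30 on chow. The groups overlapped through high-phosphate array 1 and chow array 1, and the change of 0.53 ± 0.208 with a 95% interval of 0.08 to 0.97 did not pass (limma adjusted p = 0.164). Thoracic arrays read 9.15, 9.23 and 8.66 on high phosphate and 8.57, 8.90, 7.71 and 8.47 on chow, a change of 0.60 ± 0.225 (0.12 to 1.08, limma adjusted p = 0.215), again with overlap. Only the average of both segments passed, at 0.56 ± 0.153 or 1.48-fold higher (0.24 to 0.89, limma adjusted p = 0.027). That call was lost when abdominal high-phosphate array 2 or 4, abdominal chow array 3, or thoracic high-phosphate array 1 or 2 was left out (limma adjusted p = 0.0535, 0.0536, 0.0555, 0.0692 and 0.0785), while the rise stayed between 0.44 and 0.65 whichever array was dropped. It was also lost without the 2 abdominal arrays with high hepatocyte markers (0.53, limma adjusted p = 0.0745) and without the 5 with high T and NK cell markers (0.52, limma adjusted p = 0.305).

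Lpin2, the relative of Lpin1 that catalyses the same step (probe set 17339434, chromosome 17, 71183532 to 71249818), did not pass for diet in either segment. It read 7.39, 7.36, 7.11 and 7.49 on abdominal high phosphate and 7.26, 7.17, 7.13 and 7.48 on abdominal chow, a change of 0.08 ± 0.101 (-0.14 to 0.29, limma adjusted p = 0.747). Thoracic arrays read 7.00, 7.15 and 6.96 on high phosphate and 6.99, 6.71, 6.77 and 6.95 on chow, a change of 0.18 ± 0.109 (-0.05 to 0.41, limma adjusted p = 0.525). The diet groups overlapped in both segments, and these intervals bound a change of the probe set at about 0.41 upward and -0.14 downward. Lpin1 minus Lpin2 within an array was 0.45 higher on high phosphate in the abdominal segment (exact permutation p = 0.0571, adjusted 0.0856) and 0.42 higher in the thoracic one (exact permutation p = 0.229, adjusted 0.229), with overlap in both. Another probe set of Lpin2 was dim, with a mean of 2.35, and changed by -0.07 ± 0.127 and 0.26 ± 0.137.

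**Figure D2:**
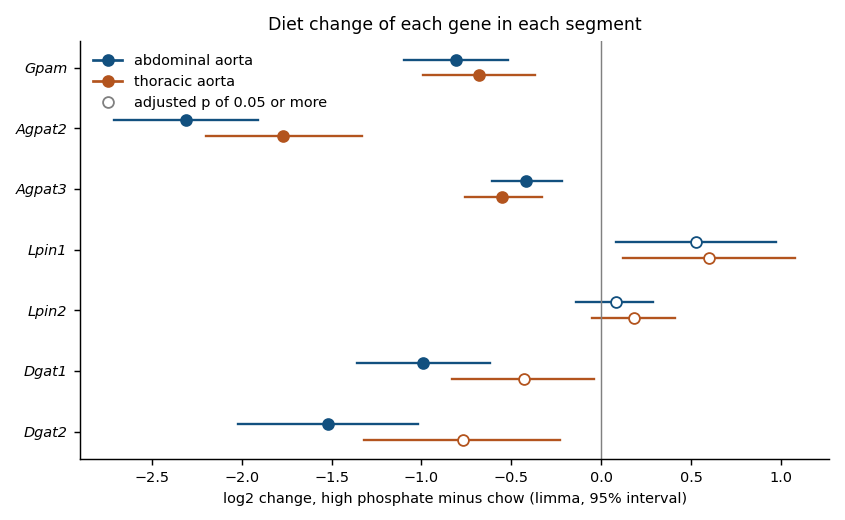
Log2 diet change (high phosphate minus chow, horizontal axis) of each gene in each segment, with 95% intervals from limma that are not adjusted for the number of genes, and open points where the adjusted p was 0.05 or more. The abdominal intervals of the 5 acyltransferases lie below 0, from Agpat2 at -2.31 to Agpat3 at -0.42, and those of Lpin2 include 0 in both segments.

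The average over both segments, which uses all 15 arrays, was -2.04 ± 0.138 for Agpat2, -1.15 ± 0.173 for Dgat2, -0.75 ± 0.0996 for Gpam, -0.71 ± 0.126 for Dgat1 and -0.48 ± 0.0681 for Agpat3. The limma adjusted p of these 5 ran from 2.53e-06 for Agpat2 to 0.0016 for Dgat1. Lpin2 changed by 0.13 ± 0.0744 and did not pass (limma adjusted p = 0.339). Agpat2, Dgat1 and Dgat2 had more negative changes in the abdominal than in the thoracic segment, but the test of that difference called 0 of the 7 genes and 0% of all genes. Abdominal minus thoracic, the difference was -0.54 ± 0.277 for Agpat2, -0.56 ± 0.253 for Dgat1 and -0.74 ± 0.345 for Dgat2 (SE), and the limma adjusted p was at least 0.879 for all 7 genes. Over all 22180 genes limma gave 1217 with an unadjusted p under 0.05 in that test. Chance alone passes a share of about 0.05, so this count is not read as a difference between segments. Agpat3, Gpam, Lpin1 and Lpin2 differed by 0.13, -0.13, -0.07 and -0.11.

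On chow the 2 segments had similar readings of the acyltransferases and of Lpin1, with differences, thoracic minus abdominal, between -0.08 and 0.15. Lpin2 alone passed, 1 of the 7 where 4.78% of all genes did, at -0.41 ± 0.101 (limma adjusted p = 0.0319). Its chow means were 7.26 ± 0.16 in the abdominal and 6.85 ± 0.13 in the thoracic aorta (SD, n = 4 each), without overlap, and its dim probe set differed by -0.42. The call was lost without abdominal chow array 4 or thoracic chow array 2, 3 or 4 (limma adjusted p = 0.118, 0.0894, 0.0861 and 0.0532). On high phosphate Dgat1 was 0.71 ± 0.185 and Dgat2 0.79 ± 0.253 higher in the thoracic segment (limma adjusted p = 0.0196 and 0.0496), 2 of the 7 where 13.8% of all genes passed. The Dgat1 groups did not overlap, at 8.58 ± 0.29 (SD, n = 4) and 9.29 ± 0.36 (SD, n = 3), while the Dgat2 groups did. The Dgat1 call was lost without abdominal high-phosphate array 2 or thoracic high-phosphate array 1 or 2 (limma adjusted p = 0.0635, 0.104 and 0.0553), and the Dgat2 call in 12 of the 15 fits that each left out 1 array. Agpat2 was 0.56 higher in the thoracic segment on high phosphate and did not pass (limma adjusted p = 0.0837). Other tissue also differed between the segments. In the high-phosphate groups 8 of 8 smooth muscle and 6 of 6 cardiac muscle markers were higher in the thoracic segment (medians 0.96 and 3.26). Lower there were 7 of 7 T and NK cell, 4 of 4 lymph node and 4 of 5 sympathetic neuron and chromaffin markers (medians -2.22, -2.39 and -2.64). On high phosphate 4 of 10 pan-adipocyte and 6 of 10 brown adipocyte markers were higher in the thoracic segment, and with the pan-adipocyte mean as a covariate the differences were 0.11 for Dgat1 and 0.03 for Dgat2, neither called. With the T and NK cell mean as a covariate they were 0.38 and 0.64, and that of Lpin2 on chow was -0.28, and without the 5 arrays with those markers the 3 values were 0.42, 0.74 and -0.34, none of them called. The part of the smooth muscle, cardiac muscle, lymph node, and sympathetic neuron and chromaffin markers was not tested.

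Within groups the acyltransferases tended to be high or low together on the same array. Abdominal high-phosphate array 2 was the lowest of its group for all 5, thoracic high-phosphate array 3 for all 7 genes, and thoracic high-phosphate array 1 the highest for all 5 acyltransferases. Across the 15 arrays Pearson's r was 0.95 for Agpat2 with Gpam, 0.94 for Agpat2 with Dgat2 and 0.96 for Dgat1 with Dgat2. With group means removed these were 0.87, 0.90 and 0.87. Lpin1 behaved differently on the 2 scales. With Agpat2 its r was -0.54 over the array values and 0.64 after group means were removed, and with Gpam it was -0.41 and 0.69. So an array with more Agpat2 than others of its own group also tended to have more Lpin1, although Lpin1 was higher on the diet on which Agpat2 was lower. Lpin2 had r of 0.02 with Agpat2 and -0.43 with Agpat3 once group means were removed. All of these are descriptions over 15 arrays, which differ in tissue composition. The part of composition and of amplification in these r was not tested.

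Over the same 15 arrays the genes most like Agpat2, by Pearson's r, were Paqr9 (0.986), the mitochondrial glycerol-3-phosphate dehydrogenase Gpd2 (0.982), Ppp2r5a (0.979), the monoglyceride lipase Mgll (0.977) and Col6a3 (0.975). For Dgat2 they were Dhrs4 (0.988), the lipid droplet coat gene Plin1 (0.984), Trarg1 (0.98), Lgals12 and Hspa9 (0.977 each). For Dgat1 they began with Reep5 (0.986), Hibch (0.981) and Ndufa12 (0.976). Gpam was most like Rbm47 (0.963) and had Agpat2 in place 5 (0.954), and Agpat3 was most like Slc25a42 (0.953), with Gpam in place 4 (0.941). The lipins had other neighbours, led by Fnip1 (0.932), Dcbld1 (0.913) and the glutamine synthetase gene Glul (0.911) for Lpin1 and by Hook1 (0.919) for Lpin2. After group means were removed Paqr9 still led for Agpat2 (0.955) and Reep5 and Hibch for Dgat1 (0.953 and 0.948), while Lpin1 was nearest Cers2 (0.935) and Phlpp2 (0.93).

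Other genes of the pathway were read from 6 lists of 49 genes, of which 44 were measured. Like the 7 genes, these lists were drawn up with earlier results known. In the abdominal aorta 12 of the 44 fell and 0 rose (median -0.22), in the thoracic aorta 3 fell (median -0.08), and in the average 14 fell (median -0.19), where 5.06%, 1.08% and 6.18% of all genes fell. With the mean of the pan-adipocyte markers as a covariate the abdominal 12 became 0 and the average 14 became 2, and with the brown adipocyte mean added all 3 counts were 0. Some list genes, among them Lipe and Ppargc1a, are themselves part of these marker means, so part of that loss is built in. Without the 5 abdominal arrays with T and NK cell markers the abdominal count was 0 and the average count 7, and without thoracic high-phosphate array 2 or 3 the thoracic count was 1. Of 12 other enzymes listed for acyl transfer and phosphatidate steps, not all on the route of the 7 genes, 2 fell in each segment, beside the 5.06% and 1.08% of all genes. Gpat3, the glycerol-3-phosphate acyltransferase of the endoplasmic reticulum in fat, changed by -1.13 ± 0.184 and -1.03 ± 0.199, and Mogat1, which acylates monoacylglycerol, by -0.82 ± 0.0975 and -0.74 ± 0.105 (limma adjusted p = 0.00138, 0.014, 0.000151 and 0.00206). Plpp1, a lipid phosphate phosphatase, passed in the average only (-0.21 ± 0.0594, limma adjusted p = 0.0321). Agpat1 and Gpat4, named after their values were seen, did not pass for diet. Agpat1, another phosphatidate-forming enzyme, read -0.13 ± 0.0994 and -0.19 ± 0.107, and Gpat4 read -0.46 ± 0.14 in the abdominal and 0.05 ± 0.151 in the thoracic segment. Lpin3, the remaining lipin, had an average of 0.30 ± 0.0932 that just missed (limma adjusted p = 0.0517).

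**Figure D3:**
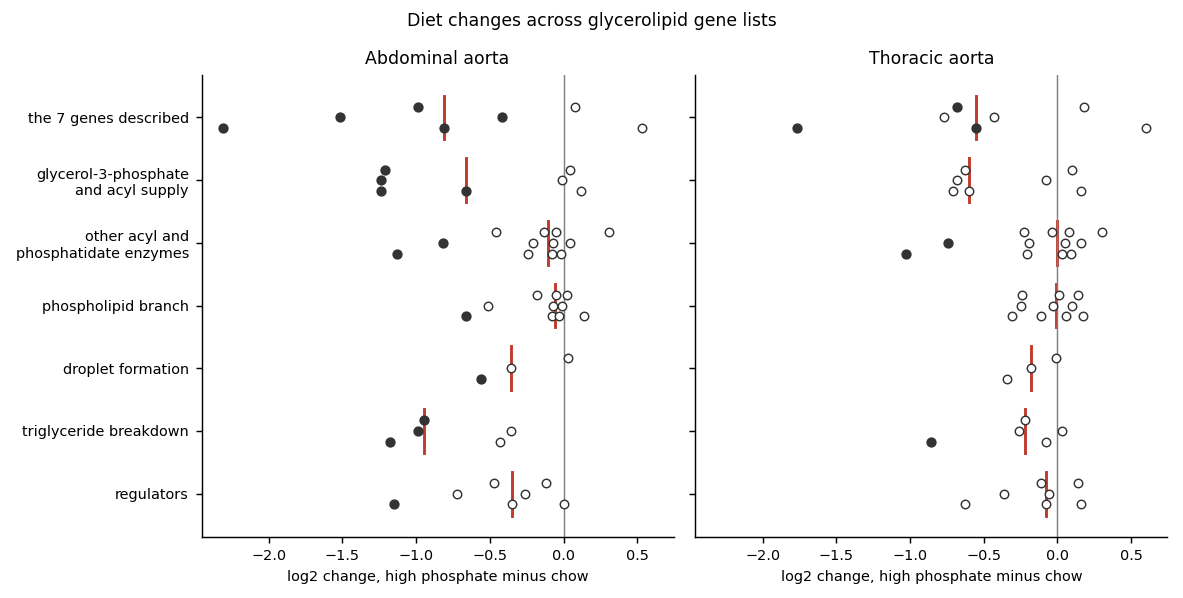
Log2 diet change (horizontal axis) of each measured gene of the pathway lists and of the 7 genes, in each segment, 1 point per gene, filled where the limma adjusted p was under 0.05, with a bar at the median of each list. The filled points all lie left of 0 in both segments, 12 of the 44 list genes in the abdominal and 3 in the thoracic one.

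Upstream of the acyltransferases, 4 of the 7 measured genes for glycerol-3-phosphate and acyl-CoA supply fell in the abdominal aorta, where 5.06% of all genes did. These were Gpd1 (-1.24 ± 0.261) and Pck1 (-1.24 ± 0.275), which lead to glycerol-3-phosphate, the glycerol channel Aqp7 (-1.21 ± 0.199) and the acyl-CoA synthetase Acsl5 (-0.66 ± 0.164). In the thoracic segment 0 of these 7 passed, with a median of -0.60. On the phospholipid side, which also draws on lipin products, 1 of 10 fell, the cholinephosphotransferase Chpt1 (-0.66 ± 0.0989), a share near that of all genes, and 0 of 10 in the thoracic segment. Of 3 genes of droplet formation seipin, Bscl2, fell in the abdominal segment (-0.56 ± 0.0931), and its thoracic value of -0.34 ± 0.101 did not pass (limma adjusted p = 0.0918). Breakdown genes fell as well, 3 of 5 in the abdominal aorta. They were Mgll (-1.18 ± 0.145), hormone-sensitive lipase Lipe (-0.99 ± 0.161) and the lipase inhibitor G0s2 (-0.95 ± 0.228), with Mgll alone called in the thoracic segment (-0.86 ± 0.157). Among 7 regulators Ppargc1a, a coactivator that lipin 1 binds, fell in the abdominal segment (-1.15 ± 0.252), while Srebf1 and Cebpa read -0.47 and -0.72 there and did not pass. Pparg, named after its value was seen, read -0.26 and did not pass.

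Some adipocyte markers fell on the same diet as the acyltransferases. The mean of the 10 measured pan-adipocyte markers was 8.68, 8.45, 8.79 and 8.71 on the abdominal high-phosphate arrays and 9.59, 9.53, 9.23 and 9.16 on abdominal chow, without overlap. On thoracic arrays it was 9.30, 9.31 and 8.86 on high phosphate and 9.45, 9.59, 9.18 and 9.41 on chow, with overlap. Of the 10 markers 4 fell in the abdominal segment (median -0.50), among them Adipoq, the adiponectin gene, by 0.48 ± 0.118, Plin1 by 1.71 ± 0.219 and Retn by 1.56 ± 0.181, and 1, Retn, fell in the thoracic segment (median -0.13). Fabp4, a fatty acid binding protein abundant in fat and named after its values were seen, read -0.16 ± 0.0472 and -0.03 ± 0.0509 and did not pass. Of 10 brown adipocyte markers, among them Cox7a1, Cox8b and Otop1, 9 fell in the abdominal (median -1.36) and 5 in the thoracic segment (median -0.87). Over all genes 5.06% fell in the abdominal and 1.08% in the thoracic segment. Their mean ran from 6.94 to 7.44 on abdominal high-phosphate and 8.40 to 8.79 on abdominal chow arrays, and from 7.70 to 8.23 and 8.79 to 9.01 on thoracic ones. Lipe, Pnpla2, Pparg and Cebpa belong to both the pathway and the pan-adipocyte lists, and Ppargc1a to both the pathway and the brown adipocyte lists.

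**Figure D4:**
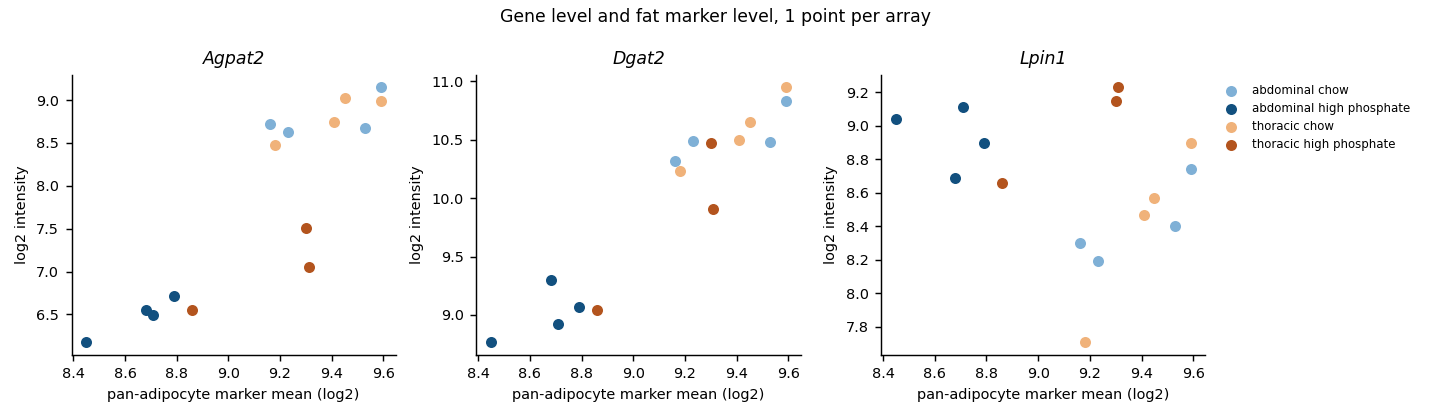
Log2 intensity of Agpat2, Dgat2 and Lpin1 (vertical axes) against the mean of 10 pan-adipocyte markers (horizontal axis), 1 point per array and coloured by group. Thoracic high-phosphate arrays 1 and 2, with marker means of 9.30 and 9.31, read 7.51 and 7.05 for Agpat2, while abdominal chow array 4, with a mean of 9.16, read 8.72. On the same arrays, in that order, Dgat2 read 10.47, 9.91 and 10.32. Their brown adipocyte marker means, not drawn, were 8.23, 7.97 and 8.40.

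Adding the pan-adipocyte mean of each array to the model as a covariate left a fall of Agpat2 of -1.42 in the abdominal (limma adjusted p = 0.0297), -1.45 in the thoracic and -1.43 in the average contrast (limma adjusted p = 0.000469). The abdominal values of Gpam, Dgat1, Dgat2 and Agpat3 became -0.10, -0.11, -0.40 and -0.09, none of them called. In the thoracic contrast Agpat3 and Gpam, both at -0.43, stayed called. Lpin1 moved the other way, to 1.40 in the abdominal contrast (limma adjusted p = 0.0693), 0.91 in the thoracic one (limma adjusted p = 0.0199) and 1.16 in the average (limma adjusted p = 0.00899). With the brown adipocyte mean added as well, 0 of the 7 passed in any contrast, and limma called 0 of all 22180 genes for diet. Agpat2 then read -0.82, -1.01 and -0.91 and Lpin1 1.55, 1.02 and 1.29, while Agpat3, Gpam, Dgat1 and Dgat2 turned to values between 0.13 and 0.33 in the abdominal contrast. The marker means differ between the diets themselves. Both did so without overlap in the abdominal segment, and the brown adipocyte mean also in the thoracic one. So in these fits fat marker level and diet cannot be told apart in full.

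The uneven tissue was handled by leaving arrays out. Without the 2 abdominal high-phosphate arrays with hepatocyte markers the 5 abdominal falls lay between -2.43 for Agpat2 and -0.43 for Agpat3 and all stayed called. Leaving out the 5 abdominal arrays with T and NK cell markers left 1 high-phosphate and 2 chow arrays in that segment. The high-phosphate array left was array 3, itself 1 of the 2 with hepatocyte markers, at a mean of 8.42. Lymph node markers were not removed by this step. Their mean was 7.42 on that array and 7.74 on abdominal chow array 3, against 6.23 on abdominal chow array 1. Agpat2 then read -2.17. The other 4 read -1.60 for Dgat2, -0.82 for Dgat1, -0.72 for Gpam and -0.41 for Agpat3 and lost the call in the abdominal segment, with the lone high-phosphate array assumed to vary like the other groups. In the average they stayed called, from -1.97 for Agpat2 to -0.48 for Agpat3.

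**Figure D5:**
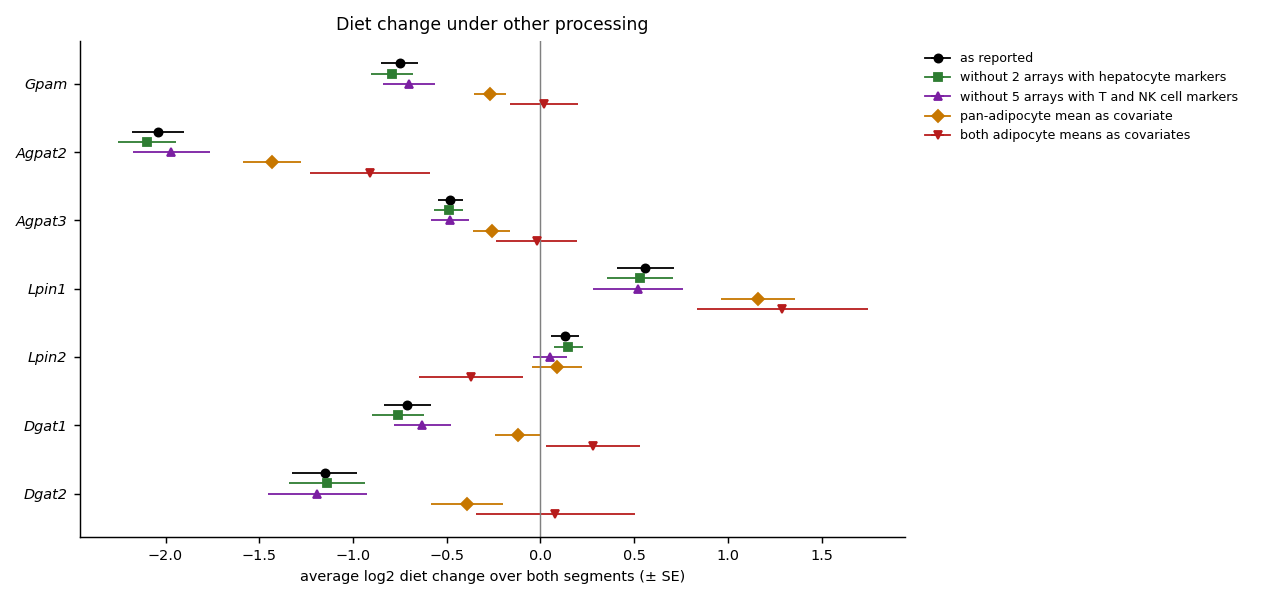
Average log2 diet change over both segments (horizontal axis, ± SE) of each gene as reported and under 4 other fits. Leaving out the arrays with hepatocyte or lymphocyte markers keeps the 6 genes called as reported on the same side of 0, while adipocyte covariates bring Dgat1 from -0.71 to -0.12 and 0.28 and take Lpin1 from 0.56 to 1.16 and 1.29.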

How the data were processed

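The 7 genes and all gene lists were chosen with earlier results of these data known. The authors deposited 1 log2 intensity per probe set and array. RMA and Partek are named, without versions, in the submitters' processing notes, and the log base was inferred from the range of 1.381 to 13.33. Per the labels, RNA was amplified with NuGEN Applause WT-Amp Plus ST. Of 41345 probe sets 23521 name 1 gene; the brightest per gene left 22180 genes, with no filter on dim genes. In R 4.3.3, limma 3.58.1 fitted 4 group means (trended eBayes, 11 residual degrees of freedom) with Benjamini-Hochberg adjustment over all genes. The script was tested on simulated data. Enzyme pairs were compared within arrays with exact permutation tests in scipy 1.17.1, added after the values were seen. Named were the 7 genes, up to 4 genes per list with the smallest p in the average diet change, and per gene the 5 others of highest Pearson's r. The p-values measure spread between these samples only. Signal over background is unknown, and the number of arrays limits precision. Alternatives were a prior without trend, dim genes left out, only the groups compared, quantile or median scaling, array weights, a replicate block, other probe set rules, marker covariates, other thresholds and fits without single or marked arrays. The marked arrays, the T and NK cell covariate and the hepatocyte covariate were added after seeing the data.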

Additional observations from a re-analysis of the deposited data

Results flagged for a closer look

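Agpat3 in the thoracic chow group was flagged because 1 of its 4 arrays stood far from the others. Array 2 read 8.43, beside 8.14 to 8.16 on the other 3, a gap of 0.9241 of the group's whole range and above Dixon's 95% critical value for 4 samples. It was 1 of 21 groups of 4 examined over the 7 genes, and chance flags about 1 in 20. The thoracic fall of Agpat3 stayed called without that array.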

How the results depend on the processing

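Of 1330 recomputed changes of single genes 1170 kept their direction and side of the threshold. Of the rest 75 lost the call, 11 gained it, 65 that were not called changed sign and 9 that were called reversed. Many of these estimates could not move, so the count of 1170 is no measure of stability. Other thresholds reused the same fit, and other probe set rules could move only the estimates of Lpin2. Leaving out an array outside a comparison left the estimate of that comparison unchanged. All 9 reversals came with both adipocyte covariates. In the abdominal diet change Agpat3, Gpam, Dgat1 and Dgat2 became 0.19, 0.22, 0.33 and 0.13, in the average Gpam, Dgat1 and Dgat2 became 0.02, 0.28 and 0.08, and between segments on high phosphate Dgat1 and Dgat2 became -0.12 and -0.24. The cause was not tested.

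The number of the 7 genes called was 5 for the abdominal diet change. It was 4 with the hepatocyte covariate and 4 by the unadjusted rule, a p under 0.05 with 1.5-fold. It was 1 with the pan-adipocyte covariate, 0 with both covariates and 1 without the 5 arrays with T and NK cell markers. The thoracic count of 3 became 0 with both covariates and 1 to 4 when single arrays were left out, lowest without thoracic high-phosphate array 3. That count was 2 with only the groups compared, and 4 with the pan-adipocyte covariate or by the unadjusted rule. The average count of 6 became 2 with the pan-adipocyte covariate and 0 with both, and 5 to 6 without single arrays. This average count was 4 by the unadjusted rule, and 5 with the hepatocyte covariate or without the 2 hepatocyte arrays. For the difference of the diet changes, 0 became 1 with an unadjusted p under 0.05 and 1.5-fold. Between segments on chow, 1 became 0 with only the groups compared, the dimmest probe set, both covariates, the unadjusted rule, the T and NK cell covariate and without the 5 arrays, and 0 to 1 without single arrays. On high phosphate 2 became 1 with no variance trend, the dimmest probe set, the hepatocyte covariate and without the 2 hepatocyte arrays. It became 0 with only the groups compared, either adipocyte covariate fit, the T and NK cell covariate and without the 5 arrays, 4 with array weights and at an adjusted p under 0.1, and 0 to 3 without single arrays.

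Over all genes the abdominal count of 1554 became 1026 with only those groups, 37 with the pan-adipocyte covariate, 0 with both, 812 by the unadjusted rule, 137 without the 5 arrays, 1023 without abdominal high-phosphate array 2 and 891 without abdominal chow array 1. The thoracic 548 became 907 with array weights, 992 at an adjusted p under 0.1, 935 with the T and NK cell covariate and 0 with both adipocyte covariates. It became 245 or 263 without thoracic high-phosphate array 2 or 3 and 209, 327 or 265 without thoracic chow array 1, 2 or 4. For the diet changes over all genes, only counts that moved by more than 1.5-fold are given. The average 2376 became 371 with the pan-adipocyte covariate, 0 with both, 522 by the unadjusted rule and 1029 without the 5 arrays.

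With the replicate number as a block the counts of called genes stayed 5, 3 and 6, and Agpat2 read -2.31, -1.78 and -2.05. Deviations from group means were correlated over genes between arrays of the 2 segments on 1 diet. For same-numbered arrays r was 0.03 to 0.12 (median 0.05), and for differently numbered ones -0.15 to 0.14 (median -0.03). The labels state no pairing, and the numbers were not taken as pairs. Quantile scaling shifted any gene by at most 0.026, taking the median of its shifts over the arrays. Median scaling shifted any array by at most 0.032.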
